A study of Homo sapiens with 10 samples.

Results

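The universal Smad sites are the places in the genome where Smad proteins were found in every usable Smad library of a pair of lung cancer lines. They were chosen by the overlap of 4 deposited peak lists: a Smad3 peak of H441 cells given a control siRNA was taken as a member when it shared at least 1 bp with a Smad3 peak of H441 cells given an siRNA against TTF-1, with a Smad4 peak of those TTF-1-depleted cells, and with a Smad3 peak of A549 cells. Of the 8941 Smad3 peaks of control H441 cells, 349 met this rule (3.90% of the list). Since the 4 lists chose the members, overlap among them, and the width and the list position of the peaks in them, are given as a description without a test. The TTF-1 lists took no part in the choice and could be tested.

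Binding was mapped by chromatin immunoprecipitation with sequencing (ChIP-seq), in which DNA bound to a protein is recovered with an antibody, sequenced, and searched for regions (peaks) where reads pile up over input DNA. H441 and A549 are established human lung adenocarcinoma cell lines, the first positive and the second negative for TTF-1 per the labels. The libraries were Smad3 and Smad4 from H441 cells with control siRNA (siControl, TTF-1 positive) or with TTF-1 depleted by siRNA (siTTF-1), TTF-1 from H441 cells at 0 h and at 1.5 h with no siRNA named, and Smad3 from A549 cells with no siRNA named. The treatment label of all samples gives 1 ng/ml TGF-β3 for 1.5 h, also for the TTF-1 library titled 0 h. Each condition had 1 library, 3 input libraries served as background for peak calling, and peak lists do not tell how deeply a library was sequenced, so depth is unknown. No difference between conditions can therefore be set against replicate spread, and every interval and p-value here compares peaks and covers counting error only.

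When TGF-β binds its receptors on the cell surface, Smad2 and Smad3 are phosphorylated, join Smad4 and move into the nucleus, where the complex binds regulatory DNA together with other transcription factors. Smad proteins bind DNA weakly by themselves, so the partner factors of a cell type are known to steer where they go. TTF-1, also called NKX2-1, is the homeodomain factor that defines the lung and thyroid epithelial lineage and drives the surfactant genes of alveolar type II cells.

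The name of the set holds only within limits that the libraries set. Smad4 was not mapped in A549 cells, and in siControl H441 cells the Smad4 list held 1 peak, so Smad4 at these sites was seen in TTF-1-depleted cells. That lone siControl Smad4 peak lay inside a universal site, chr1:79069651-79070799, at which Smad3 had a peak of 1149 bp in siControl cells and of 1099 bp in siTTF-1 cells, and Smad3 of 449 bp in A549 cells. In siTTF-1 cells it was number 9 of the Smad4 list, and TTF-1 was present there at both times. Per the labels, the limit on the false discovery rate was 10% for both Smad4 lists, 5% for the A549 list and 1% for the other lists. No TTF-1 library came from depleted cells, so "with TTF-1" below means that a TTF-1 peak of the H441 cells without a named siRNA overlapped the site.

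Each condition for membership was met by a different share of the siControl peaks. A siTTF-1 Smad3 peak was found at 80.8% of them, a Smad4 peak at 10.1% and an A549 Smad3 peak at 11.9%. Smad4 and A549 together almost decided membership: 350 siControl peaks met both, and 349 of these were also present after TTF-1 depletion. The 1 exception, on chromosome 8, had number 8034 in the siControl list, carried TTF-1 at both times, and lay 1601 bp from the nearest siTTF-1 peak. For comparison, the 6874 other siControl peaks kept in siTTF-1 cells (here "other kept peaks") fell into 547 with Smad4 but no A549 peak, 700 with an A549 but no Smad4 peak, and 5627 with neither.

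Seen from the other lists, the universal sites took up a small part of the Smad3 peaks of TTF-1-depleted cells and a larger part of the Smad4 and A549 peaks. They met 353 of the 14145 siTTF-1 Smad3 peaks (2.50%), 354 of the 1605 Smad4 peaks (22.1%) and 356 of the 2535 A549 peaks (14.0%). Nearly every member had a single partner in each list. A second partner peak was present at 5 sites for siTTF-1 Smad3, 5 for Smad4 and 7 for A549.

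Few sites lay close to the threshold of 1 shared bp on either side. The smallest overlap that admitted a member was 299 bp for siTTF-1 Smad3, at chr12:55665901-55666199, the full width of that siControl peak. For A549 it was 249 bp, at chr15:72475951-72477399, the full width of the A549 peak. For Smad4 it was 49 bp, at chr6:72171201-72171699. With positions in steps of 50 bp, 49 bp is the least overlap these peaks can have, so this site lay at the threshold. Just outside, the kept site with Smad4 nearest to an A549 peak, chr5:158942151-158943499, missed it by 51 bp, and 2 of the 547 such sites lay within 500 bp of one. The kept site with an A549 peak nearest to a Smad4 peak, chr7:5698401-5698749, missed it by 201 bp, and 3 of the 700 lay within 500 bp. The median distance of the excluded sites to the peak they lacked was 403401 bp for A549 and 285676 bp for Smad4, so most of them were far from membership.

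The sites at the head of the siControl list show what a universal site looks like. Each list numbers its peaks from 1. The labels do not say what the number means, and it serves here only as an order within a list. The first peak of the siControl list, chr5:135383451-135384749, was a member. Smad3 covered 1299 bp there in siControl cells and 1599 bp in siTTF-1 cells, where it was also number 1, and 799 bp in A549 cells (number 48). Smad4 covered 399 bp (number 51), all of it inside the other 3 peaks. TTF-1 had a 1199 bp peak at 0 h and a pair of peaks at 1.5 h, of which the one with most overlap was 699 bp wide.

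The next members by siControl number were chr12:45774701-45776549 (number 3), chr19:12754651-12756649 (5), chr1:59167701-59168599 (10), chr17:60133001-60134549 (12) and chr5:156962851-156963949 (16). After them came chr5:153557401-153559449 (18), chr1:85845101-85846299 (20), chr11:101928001-101930449 (21) and chr1:216617101-216617899 (22). All 10 carried a TTF-1 peak at both times, the common state at the head of the list. In the siTTF-1 list they stood between number 1 and number 185, so all were still near the head of the list in cells depleted of TTF-1. The other libraries ordered them differently. Their Smad4 numbers ran from 15, at chr1:216617101-216617899, to 1350, at chr1:85845101-85846299, and their A549 numbers from 7, at chr19:12754651-12756649, to 2465, at chr11:101928001-101930449.

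Among these 10 sites, the Smad3 peak was wider after TTF-1 depletion at some and narrower at others. At chr1:216617101-216617899 the peak was 799 bp wide in siControl cells and 1399 bp in siTTF-1 cells. At chr11:101928001-101930449 the siControl peak of 2449 bp, matched by TTF-1 peaks of 2799 bp at 0 h and 2849 bp at 1.5 h, faced a pair of siTTF-1 peaks, the larger 1199 bp wide. At chr17:60133001-60134549 the widths were 1549 bp and 1149 bp. The stretch shared by all 4 Smad peaks was between 249 bp and 499 bp at each of the 10.

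Only 5 members were among the first 100 peaks of all 4 lists. All 5 carried TTF-1 at both times, as did most early peaks: 95.8% of the other kept peaks among the first 1789 of the siControl list had TTF-1 at 1.5 h. Besides chr5:135383451-135384749 and chr19:12754651-12756649 they were chr17:55188151-55189299, chr1:166945551-166946499 and chr22:39224451-39225749. At chr17:55188151-55189299 the siControl, siTTF-1, Smad4 and A549 numbers were 31, 39, 11 and 29. At chr22:39224451-39225749 they were 94, 70, 99 and 64.

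The widest member, chr3:4998801-5004649, was 5849 bp wide in siControl cells and 8049 bp in siTTF-1 cells, where the peak also met a second siControl Smad3 peak. It held a Smad4 peak and an A549 peak that did not touch each other. It had TTF-1 at 0 h only. The next were chr16:3010351-3014199 (3849 bp), chr20:55701351-55704449 (3099 bp), chr15:65204901-65207799 (2899 bp) and chr11:33668051-33670899 (2849 bp). In siTTF-1 cells these 4 had nearly the same widths, 3899, 3099, 2999 and 2899 bp. Within such broad Smad3 regions the Smad4 peaks stayed narrow, from 299 bp to 599 bp, and off centre, by 325 bp to 1100 bp.

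Several members stood close together. With gaps of up to 100 kb allowed, 68 of the 349 formed 31 runs and 281 stood alone. The longest run held 5 universal sites within 27.5 kb, chr5:135357201-135384749, and ended with the first peak of the siControl list. Over this stretch there were 7 siControl and 8 siTTF-1 Smad3 peaks, 7 Smad4 peaks and 5 A549 peaks, and each A549 peak lay in a universal site. TTF-1 was at 4 of the 5 sites. The site without it, chr5:135357201-135358299, had siControl number 3823 and a width of 1099 bp in siControl and 1349 bp in siTTF-1 cells.

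The 3 runs of 3 members differed in their TTF-1 content, as the map of the runs shows. Over all members 75.9% had TTF-1 at 1.5 h, and over all siControl peaks 82.2%. With 3 sites each, the runs are too small to be set apart. On chromosome 15 (chr15:65186151-65230349) all 3 sites had TTF-1 at both times, with siControl numbers of 73, 29 and 582. On chromosome 3 (chr3:4998801-5040649) 2 of 3 had TTF-1 at 1.5 h, and one of them, chr3:5032801-5033949, was number 2 of the siTTF-1 list and number 27 of the siControl list. On chromosome 20 (chr20:55701351-55757949) none of the 3 sites had TTF-1 at 1.5 h, and chr20:55706151-55707999 had it at 0 h. This last site was number 9 of the A549 list, number 70 of the Smad4 list and number 1686 of the siControl list. All 3 chromosome 20 sites had the same width in siControl and siTTF-1 cells, 3099, 1849 and 1049 bp.

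**Figure D1:**
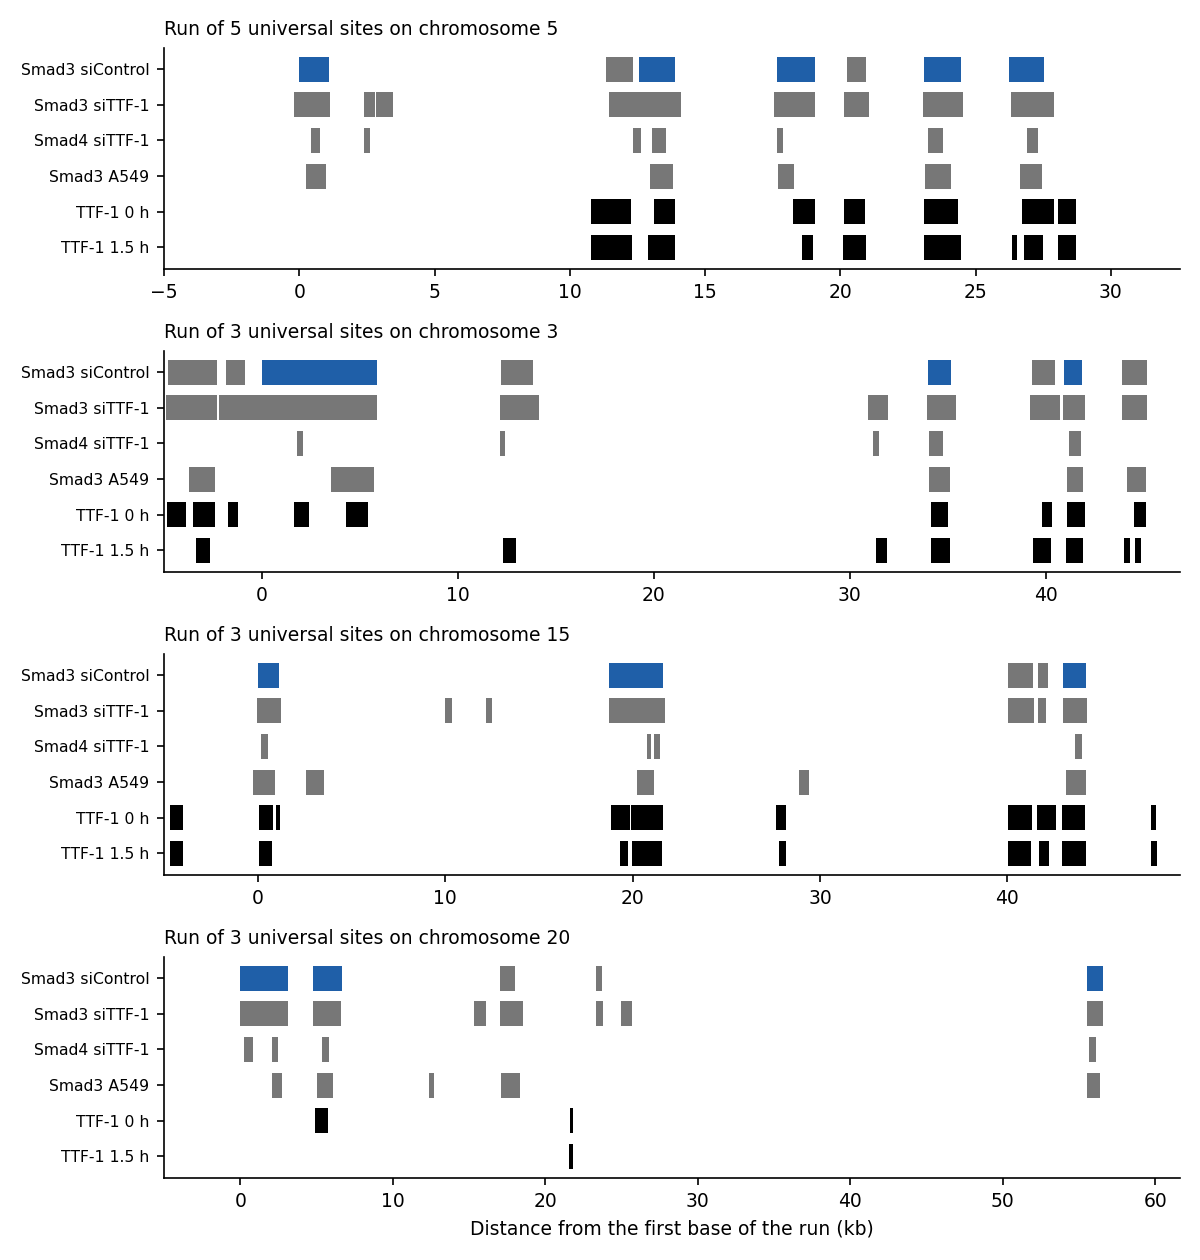
Maps of the 4 runs with at least 3 universal sites: bars are called peaks in each of 6 lists, universal sites in blue, other Smad peaks in grey and TTF-1 peaks in black, against the distance in kb from the first base of the run. The chromosome 5 run holds 5 universal sites, 4 of them with TTF-1 at 1.5 h, while none of the 3 on chromosome 20 has a TTF-1 1.5 h peak.

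The universal sites were spread over 23 chromosomes, with 36 on chromosome 1 and 33 on chromosome 5. Over the whole siControl list the share of members was 3.90%. Chromosome 15 gave the highest share, 24 of its 270 siControl peaks (8.89%, exact 95% interval 5.78 to 12.9). Chromosomes 13, 8 and 4 gave the lowest, 1.83%, 1.88% and 2.03%. These are the extremes of 23 chromosomes, and no test was run. The interval assumes independent sites, which members in runs are not. All 8 members on the X chromosome carried TTF-1 at 1.5 h, beside 75.9% of all members and 82.2% of all siControl peaks. The share among the 215 siControl peaks on X is not given, and 8 sites are too few to set X apart.

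Within 10 kb, further Smad peaks were more frequent around the universal sites than around the other kept peaks. A Smad3 peak found in siTTF-1 but not in siControl cells lay within 10 kb of 99 universal sites (28.4%, exact 95% interval 23.7 to 33.4) and of 20.8% (19.9 to 21.8) of the other kept peaks. Another siControl Smad3 peak was that near to 45.3% (40.0 to 50.7) and 37.2% (36.1 to 38.4), and a TTF-1 1.5 h peak other than one at the site itself to 57.0% (51.6 to 62.3) and 49.2% (48.0 to 50.3). These intervals of the classes do not overlap, but they assume independent peaks, which neighbouring peaks are not, and no test was run. The siControl and siTTF-1 Smad3 lists had a part in choosing the members, while the TTF-1 list had none. The classes also differ in siControl width, with medians of 849 bp and 599 bp, and in siControl number, with medians of 1751 and 4030. Neighbour counts were not compared at equal width or number. In wider windows the higher frequency held only in part. Within 50 kb a TTF-1 1.5 h peak lay near 81.7% and 81.4%, and another siControl peak near 69.3% (64.2 to 74.1) and 63.8% (62.6 to 64.9), while a Smad3 peak found only in siTTF-1 cells lay near 59.6% (54.2 to 64.8) and 49.6% (48.4 to 50.8). Within 10 kb a further Smad4 peak, at 15.8% and 7.06%, and a further A549 peak, at 27.5% and 10.3%, were also more frequent around the universal sites, though both lists had a part in choosing them.

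The members stood toward the head of each list that chose them. The median siControl width was 849 bp (quartiles 649 to 1149, range 299 to 5849), against 599 bp (449 to 849) for the other kept peaks, and the median siControl number was 1751 against 4030. In siTTF-1 cells the members' median width was 1049 bp (799 to 1299), in A549 cells 749 bp (599 to 999), and for Smad4 349 bp (299 to 449). The lead was greatest in TTF-1-depleted H441 cells, where 292 members (83.7%) lay in the first stratum of the Smad3 list when each list was divided by number into 5 equal strata. The first stratum held 177 members (50.7%) in the siControl list, 129 (37.0%) in the Smad4 list and 111 (31.8%) in the A549 list. Of the other kept peaks, 22.4% lay in the first stratum of the siControl list. The siTTF-1 list was also the longest of the 4, and a stratum of it holds 2829 peaks. How many of the other kept peaks lay in its first stratum is not given here. The 83.7% can therefore not be called particular to the members.

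**Figure D2:**
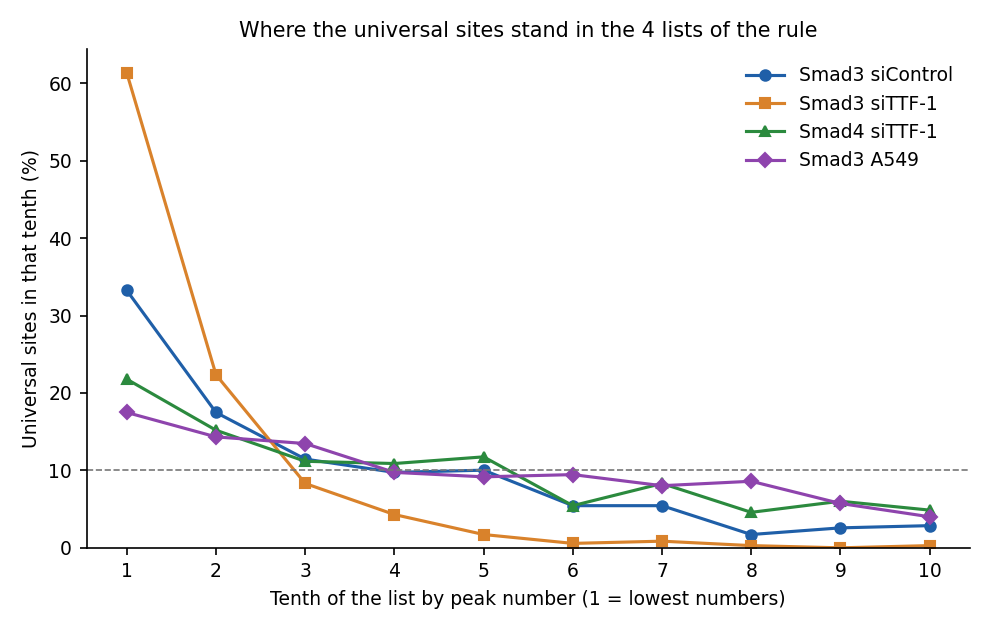
Share of the 349 universal sites (y axis, percent) in each of 10 equal parts of the siControl Smad3, siTTF-1 Smad3, Smad4 siTTF-1 and A549 Smad3 lists (x axis, by peak number, 1 the lowest numbers). The dashed line at 10% is an even spread, and the siTTF-1 curve starts highest of the 4 and falls fastest.

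Within the members, order was shared between the H441 Smad3 lists and much less between the other pairs. Across the 349 sites the siControl and siTTF-1 numbers had a Spearman correlation of 0.75 and the widths of 0.69. Between siControl Smad3 and Smad4 the correlation of numbers was 0.18, between siControl and A549 Smad3 0.12, and between Smad4 and A549 0.10. The highest values outside the H441 Smad3 pair were 0.23 for numbers, between siTTF-1 Smad3 and Smad4, and 0.29 for widths, between siControl and A549 Smad3. The siControl and siTTF-1 Smad3 libraries share the cell line, the antibody lot and the false discovery rate limit, while the Smad4 and A549 libraries differ from them in the antibody or the line and in the limit. The part of each of these in the correlations was not tested. A site early in one list could be late in another.

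At most members the 4 peaks had a stretch of DNA in common. Each partner peak had to overlap the same siControl peak, which by itself makes a common stretch likely. The Smad4 peaks, with a median width of 349 bp, also limit its length. At 343 of the 349 sites some part was common to a peak of each list, with a median of 349 bp (quartiles 249 to 399, at most 749). The other 6 included the widest member and chr6:72171201-72171699, the site admitted by 49 bp of Smad4. The centre of the Smad4 peak lay inside the siControl Smad3 peak at 346 sites (99.1%).

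Peak centres were nearest for the H441 Smad3 pair and for TTF-1, as the cumulative plot of centre distances shows. The median distance from the siControl centre was 50 bp for siTTF-1 Smad3, 75 bp for A549 Smad3 and 100 bp for Smad4. For TTF-1 the medians were 50 bp at both times, and 73.2% of the 265 sites with TTF-1 at 1.5 h had its centre within 100 bp. Every distance here is between peaks that overlap the same siControl peak, which by itself keeps the centres close. For TTF-1 only the sites that it overlaps were measured, and distances at the other kept peaks are not given. Between A549 Smad3 centres, from cells negative for TTF-1, and the H441 TTF-1 centres at these sites the median distance was 100 bp. All positions come in steps of 50 bp, which limits differences of this size.

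**Figure D3:**
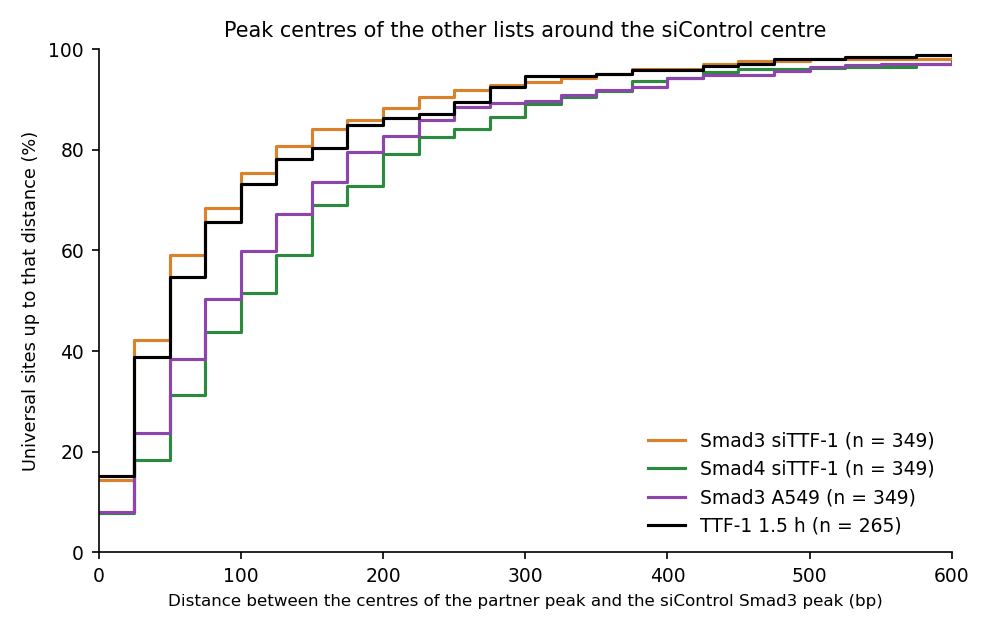
Cumulative share of universal sites (y axis, percent) whose partner peak centre lies within a given distance in bp (x axis) of the siControl Smad3 centre, for siTTF-1 Smad3, Smad4 and A549 Smad3 (349 sites each) and TTF-1 1.5 h (265 sites). Within 100 bp lay 75.4% of the siTTF-1, 73.2% of the TTF-1, 59.9% of the A549 and 51.6% of the Smad4 centres.

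Most universal sites were also TTF-1 sites, but fewer than among the other Smad3 peaks kept after depletion. A TTF-1 1.5 h peak was present at 265 of 349 members (75.9%, exact 95% interval 71.1 to 80.3) and at 81.0% (80.0 to 81.9) of the other kept peaks, beside 82.2% of all siControl peaks. The odds ratio was 0.742 (95% interval 0.576 to 0.955, two-sided Fisher's exact p = 0.026). At 0 h the gap was larger: 272 members (77.9%, 73.2 to 82.2) and 87.0% of the other kept peaks had TTF-1, beside 87.7% of all siControl peaks, an odds ratio of 0.528 (0.406 to 0.687, Fisher's exact p = 5.6e-06).

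Most members with TTF-1 in one of its libraries also had it in the other. TTF-1 was present at both times at 251 sites, at 0 h only at 21, at 1.5 h only at 14 and at neither at 63. The 0 h list held 31083 peaks and the 1.5 h list 21291, from 1 library each. Whether TTF-1 at these sites changed with time was therefore not tested. The 63 sites without TTF-1 were 18.1% of the members (14.2 to 22.5), against 11.0% (10.2 to 11.7) of the other kept peaks and 10.4% of all siControl peaks.

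The kept Smad3 peaks with Smad4 but no A549 peak had TTF-1 shares close to those of the universal sites. These 547 peaks had TTF-1 at 1.5 h in 75.1% and at 0 h in 76.8% of cases, and the difference from the universal sites was 0.79 percentage points (95% interval -4.97 to 6.56) at 1.5 h and 1.15 (-4.45 to 6.76) at 0 h (Fisher's exact test, Benjamini-Hochberg adjusted p = 0.81 for both). Peaks shared with A549 but not with Smad4 had more TTF-1 than the universal sites, 81.9% at 1.5 h (odds ratio of the universal sites 0.699, 0.512 to 0.955, Fisher's exact test, adjusted p = 0.041) and 88.3% at 0 h (0.469, 0.333 to 0.660, adjusted p = 6.8e-05). So did those with neither, 81.4% at 1.5 h (0.720, 0.559 to 0.929, Fisher's exact test, adjusted p = 0.027) and 87.8% at 0 h (0.490, 0.376 to 0.638, adjusted p = 3.3e-06). P-values were adjusted over the 6 tests of 3 classes and 2 times. Peaks are not replicates, and the part that 1 Smad4 library or its false discovery rate limit of 10% has in this was not tested.

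Members and other kept peaks were also compared at the same place in the siControl list. In the first of the 5 strata 168 of 177 members (94.9%) and 95.8% of the other kept peaks had TTF-1 at 1.5 h, and the members' interval (90.6 to 97.6) held the value of the other class. In the second stratum the shares were 49 of 74 (66.2%, 54.3 to 76.8) and 89.5%, in the third 29 of 54 (53.7%) and 80.3%, in the fourth 13 of 25 (52.0%) and 71.0%, and in the last 6 of 19 (31.6%, 12.6 to 56.6) and 61.2%. Within the strata the Mantel-Haenszel odds ratio was 0.351 (0.264 to 0.468, p = 1.1e-13, n = 349 and 6874 peaks), farther from 1 than the unstratified 0.742. A Breslow-Day test of whether the odds ratio differs between the strata gave p = 0.057 (n = 349 and 6874 peaks), and at 0 h p = 0.39, so a difference between strata was not shown.

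In the same strata the comparison with the Smad4-only peaks stayed short of the threshold, at 0.763 (0.535 to 1.09, adjusted p = 0.16, n = 349 and 547 peaks), and the other classes kept theirs, with 0.434 (0.306 to 0.616) against A549-only peaks and 0.303 (0.225 to 0.407) against peaks with neither. For A549-only peaks the Breslow-Day test gave p = 0.024 at 1.5 h and p = 0.95 at 0 h, both unadjusted (n = 349 and 700 peaks). A difference between the strata was thus seen at 1.5 h only. Width gave the same picture with a smaller gap. Within 5 strata of the siControl width the odds ratio against all other kept peaks was 0.526 (0.404 to 0.683, p = 1.1e-06, n = 349 and 6874 peaks).

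**Figure D4:**
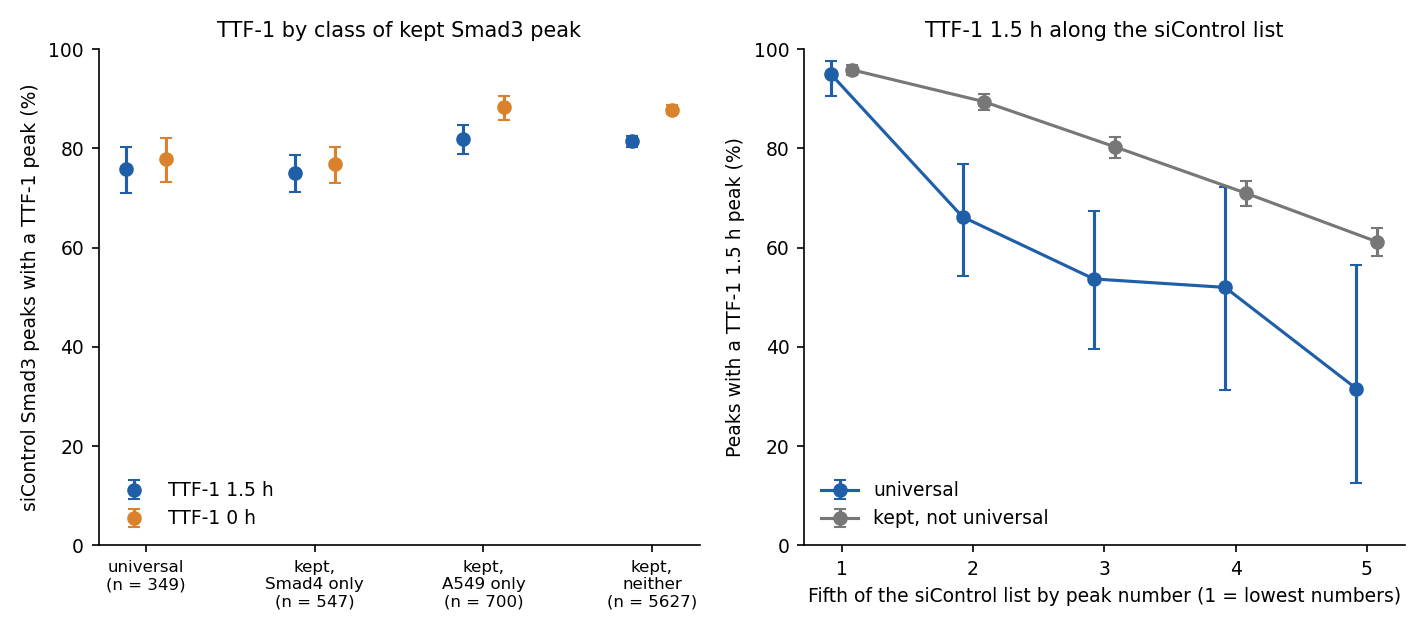
Left, percent of siControl Smad3 peaks with a TTF-1 peak at 1.5 h or 0 h for the 349 universal sites and 3 other classes of kept peaks. Right, percent with TTF-1 at 1.5 h (y axis) in 5 equal strata of the siControl list (x axis, 1 the lowest numbers) for universal and other kept peaks, with 94.9% and 95.8% in the first stratum and 31.6% and 61.2% in the last, and bars in both panels are exact 95% intervals over peaks.

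The TTF-1 peaks at universal sites were also placed in their own lists. At 1.5 h their median number was 6641 among 21291, against 6511, and 35.8% (30.1 to 41.9) lay in the first of 5 strata of the TTF-1 list, against 35.7% (34.4 to 36.9). At 0 h their median number was 9017.5 among 31083, later in the list than the 7954 of the other kept peaks, and 37.9% (32.1 to 43.9) and 42.1% (40.9 to 43.4) lay in the first stratum, intervals that overlap.

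Members with TTF-1 stood earlier in the H441 Smad3 lists, and members without it stood earlier in the Smad4 list. In the siControl list this was not particular to the members. There the TTF-1 1.5 h share of the other kept peaks fell from 95.8% in the first of 5 strata to 61.2% in the last. The 251 members with TTF-1 at both times had a median siControl number of 1079 and siTTF-1 number of 726, and the 63 members without TTF-1 had 4275 and 1707. In the Smad4 list the median number was 529 for the members with TTF-1 and 369 for those without, and in A549 cells the medians were 831 and 965. Median widths followed this order. They were 899 bp with TTF-1 and 699 bp without in siControl cells, 1049 and 949 bp in siTTF-1 cells, and 349 and 399 bp for Smad4. These are values of the lists that chose the sites, with wide spreads (quartiles of the Smad4 number from 211.5 to 966 with TTF-1 and from 114 to 677.5 without).

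The first members by siControl number without TTF-1 at either time were chr20:55701351-55704449 (number 399), chr3:40915701-40916449 (814), chr6:151403901-151404449 (1031), chr12:68085351-68086349 (1347) and chr1:9384451-9385099 (1372). The second of them, chr3:40915701-40916449, had the lowest siTTF-1 number of the 5. It was 749 bp wide in siControl cells and 949 bp in siTTF-1 cells, where it was number 28, and Smad4 covered 799 bp there (number 45) and A549 Smad3 799 bp (number 947). Its 4 peaks shared 699 bp. In the siTTF-1 list chr1:9384451-9385099 also stood early (number 294, 1049 bp against 649 bp), while chr12:68085351-68086349 stood later (number 2411, 899 bp against 999 bp).

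In TTF-1-depleted cells Smad3 peaks at universal sites were wider more often than they were narrower. The siTTF-1 peak was wider at 253 sites, narrower at 59 and equal at 37, with a median width ratio of 1.13 (quartiles 1.00 to 1.39). The ratio was 1.28 at the 84 members without a TTF-1 1.5 h peak, 65 of which were wider (77.4%), and 1.11 at the 265 with one, 188 of which were wider (70.9%). Among the other kept peaks, the ratio was 1.19 without TTF-1 and 1.00 with it, and 71.0% and 47.7% were wider. The share of wider peaks among sites with TTF-1 was thus higher for universal than for other kept sites, a difference not tested because both lists chose the members. The siTTF-1 list as a whole was longer at the same false discovery rate limit, and the part of library depth in peak width was not tested.

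At 27 members (7.74%) the siTTF-1 peak was at least 2 times as wide, against 4.98% of the other kept peaks. At 7 of the 27 it met more than 1 siControl Smad3 peak, so that neighbouring siControl peaks were joined in 1 call. Over all members this was so at 12, and the median ratio of the other 337 was 1.11. The siTTF-1 peak at the most extreme, on chromosome 8 and without TTF-1, was 3049 bp wide against 399 bp and met 2 siControl peaks. At chr11:65028801-65030399, with TTF-1 at both times, the widths were 10599 bp and 1599 bp, and that siTTF-1 peak, the widest of any member, met 4 siControl peaks. At chr9:106866501-106867049 the siTTF-1 peak of 1999 bp met 2 siControl peaks, both of them universal sites. A single siControl peak was met at chr9:4288301-4288649, where the widths were 1399 bp and 349 bp and TTF-1 was present at 0 h only. In the other direction chr6:47210251-47212049 went from 1799 bp to a pair of peaks, the larger 699 bp, and chr3:142567951-142570449 from 2499 bp to a pair, the larger 1449 bp. These 6 sites were chosen after their values were seen.

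**Figure D5:**
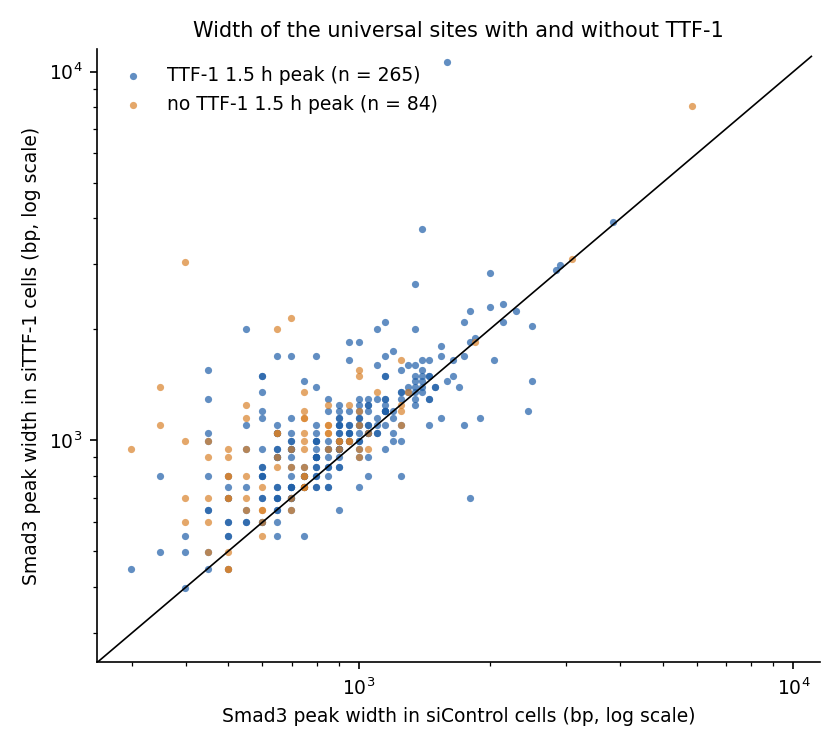
Width of the Smad3 peak in siTTF-1 cells (y axis, bp, log scale) against siControl cells (x axis, bp, log scale) at the 349 universal sites, with a TTF-1 1.5 h peak (265, blue) or without (84, orange); the line marks equal widths. At 253 sites the point lies above the line.

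Taken from the siTTF-1 list, 406 Smad3 peaks met both a Smad4 and an A549 peak, and 348 of them (85.7%) also had a siControl peak. The 58 without one were sites shared by TTF-1-depleted H441 and A549 cells but not called in H441 cells with TTF-1. Only 10 of the 58 (17.2%, 8.59 to 29.4) had TTF-1 at 1.5 h, against 269 of the 348 (77.3%, 72.5 to 81.6), an odds ratio of 16.3 (7.91 to 33.8, two-sided Fisher's exact p = 1.7e-18). At 0 h the shares were 22.4% and 79.0%, with an odds ratio of 13.0 (6.68 to 25.5, Fisher's exact p = 9.3e-17). The 58 stood later in the siTTF-1 list than the 348, with a median number of 4437.5 against 916.5, and were narrower, 799 bp against 1049 bp. The part of this difference in rank in the TTF-1 shares was not tested. Of all siControl Smad3 peaks 82.2% had TTF-1 at 1.5 h and 87.7% at 0 h, both above the shares of the 348. The shares over all siTTF-1 peaks with or without a siControl peak are not given here. Whether the contrast is particular to peaks that meet Smad4 and A549 peaks was therefore not tested.

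The number of universal sites depended strongly on the overlap asked for. With 50% of the siControl peak covered in each list there were 105, of which 61.9% had TTF-1 at 1.5 h, and the odds ratio against the other kept peaks was 0.453. Under the 1 bp rule the Smad4 peaks of the members had a median width of 349 bp and their siControl Smad3 peaks one of 849 bp.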

How the data were processed

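The authors deposited 1 peak list for each of 7 ChIP-seq libraries, on genome build hg18 per the submitters' processing notes, called on single libraries against input at the false discovery rate limits of the labels. For the aligner and the peak caller, name and settings are not given in the sources. Each deposited list holds a position in steps of 50 bp, a peak number from 1 to the length of the list, whose meaning is not stated, and a score that was 1000 for every peak and was not used. In the A549 list 1 track line was skipped. The authors' 3 derived lists were not used.

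Starts were counted from 1 and any shared base was an overlap. Where a member met more than 1 peak of a list, the one with most shared bases gave the values. Shares have exact Clopper-Pearson intervals, odds ratios Woolf intervals and Fisher's exact test, and strata are 5 equal parts of the siControl list by number or width (Mantel-Haenszel). The text names the first 10 members by siControl number, the 5 widest and the first 5 without TTF-1, and other sites were chosen after their values were seen: those at the edges of the rule, in runs, first in every list, at the lone siControl Smad4 peak or with extreme width ratios. The members and lists were chosen with earlier results of these data known. The comparison of classes, the tests from the siTTF-1 list, the runs and the neighbour counts were added after seeing the data.

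Genes near the sites and sequence motifs were not analysed here, since hg18 sequence and annotation were not used, so sites are given by position without gene, exon or intron. Python 3.11.15, NumPy 2.4.6, SciPy 1.17.1, pandas 2.3.3, statsmodels 0.14.6 and matplotlib 3.10.9 were used. Overlaps under the 1 bp rule were checked against bedtools 2.31.1. The Mantel-Haenszel odds ratio was checked on simulated TTF-1 labels drawn independently for each peak. The other overlap rules and the other tests were not checked in this way.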

Additional observations from a re-analysis of the deposited data

How the results depend on the processing

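The lower TTF-1 share of the universal sites, as an odds ratio against the other kept peaks, stayed below 1 with p under 0.05 in all 12 alternatives, from 0.302 to 0.737. All 12 used the other kept peaks as a whole and none the kept peaks with Smad4 but no A549 peak. Those 547 peaks had TTF-1 at 1.5 h in 75.1% of cases, so the lower share was not particular to the universal sites. The number of sites fell from 349 to 105 with 50% of the siControl peak covered, 230 with centres within 200 bp and 169 in the wider 50% of each list, where the TTF-1 1.5 h share was 61.9%, 67.0% and 65.7% in place of 75.9%. In each of these the TTF-1 peak had to meet the stricter rule too. With 50% covered the median width ratio was 1.29 and the sites without TTF-1 at either time numbered 35. Edges within 500 bp gave 362 sites, autosomes 341 and merging of siControl peaks within 500 bp 349. The 4 odds ratios that join an overlap rule with strata of peak number, and the count without TTF-1 under each rule, were chosen after seeing the data. The planned counts of TGF-β target genes and of motifs near the sites were not run. No paired analysis was possible because each condition had 1 library. Depth is unknown, so no limit of detection can be set for a site that lacks a peak in one of the lists.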
